A study of Mus musculus with 4 samples.

Results

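The 6 genes described here act on small metabolites that immune cells use as signals. They are Acod1, Hcar2, Hdc, Nos2, Arg2 and Ido1, out of 19505 genes with a probe set. They were selected on their levels in these same 4 arrays, as immunometabolic enzymes and the hydroxybutyrate receptor, and each is read by its 1 probe set. The levels and differences of the 6 genes below are therefore a description, with no test.

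Heart macrophages were sorted from wild-type C57BL/6N mice, 15 to 16 weeks old, after transverse aortic constriction (TAC), an operation that constricts the aorta so that the heart pumps against pressure. The sort used the mixed cells of 6 hearts and gave 4 populations, titled Ccrl2, CD74, CD163 and Trem2 macrophages. Each population gave 1 library on 1 Clariom S mouse array, which leaves the differences below without a replicate check and without a test, SD or p-value. All 4 groups share the TAC surgery, and no unoperated heart was analysed here. The source names put sampling 8 weeks after TAC and the growth protocol 1 week after. For the library titled CD74 the source name says CD9, and for the one titled CD163 the growth protocol has Lyve1. Libraries are therefore called by their titles.

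Acod1 encodes the mitochondrial decarboxylase that turns the citric acid cycle intermediate cis-aconitate into itaconate, which restrains succinate dehydrogenase and activates the antioxidant factor Nrf2. Hdc makes histamine from histidine, and Hcar2 is a surface receptor for niacin and for the ketone body beta-hydroxybutyrate. Nos2 and Arg2 compete for arginine, the first to make nitric oxide and the other, a mitochondrial arginase, to make ornithine and urea. Ido1 starts the breakdown of tryptophan to kynurenine. Stimulated macrophages are known to induce Acod1, Nos2 and, after interferon, Ido1. Acod1, Hdc and Hcar2 are also known from neutrophils, and Hdc is a defining enzyme of mast cells and basophils.

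Levels are deposited log2 values, where 1 unit is a 2-fold step. A background ceiling was set for each library at the 95th percentile of 1500 chemosensory receptor and keratin-associated protein genes, which heart macrophages are not known to use. The Ccrl2 array had a ceiling of 5.67 and the CD74 array of 6.53, against 6.28 for CD163 and 5.51 for Trem2. Above these ceilings were 7454 genes (Ccrl2), 3621 (CD74), 4984 (CD163) and 8144 (Trem2). Of 10 macrophage markers, 10 were above it in Ccrl2, 7 in CD74, 10 in CD163 and all 10 in Trem2. The macrophage growth factor receptor gene Csf1r had 19.59 in Ccrl2, 9.40 in CD74 and 18.60 in CD163, with 19.19 in Trem2. Of 10 markers of T and NK cells, the Ccrl2 array had 0 above its ceiling and CD74 had 9, while CD163 had 1 and Trem2 had 7. The Trem2 transcript did not separate the first population from the last, with 7.17 in Ccrl2 and 7.20 in Trem2.

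Promoter sequences were held for 2 of the 6 genes, Acod1 and Hdc, from the RefSeq table of the GRCm38.p6 assembly. They are shown because both genes were high in the Trem2 library, described below. Each runs from 250 bases before a start listed in the table to 50 after it, 5′ to 3′ on the strand of the gene. For Acod1 that is the start of the gene in RefSeq. For Hdc it lies inside the RefSeq gene, whose span reaches further upstream, and sequence at the outermost start was not used here. Capitals mark matches, on either strand, to the searched motifs. Acod1 lies at chr14:103046762-103047061 on the plus strand and Hdc at chr2:126618629-126618928 on the minus strand.
Acod1: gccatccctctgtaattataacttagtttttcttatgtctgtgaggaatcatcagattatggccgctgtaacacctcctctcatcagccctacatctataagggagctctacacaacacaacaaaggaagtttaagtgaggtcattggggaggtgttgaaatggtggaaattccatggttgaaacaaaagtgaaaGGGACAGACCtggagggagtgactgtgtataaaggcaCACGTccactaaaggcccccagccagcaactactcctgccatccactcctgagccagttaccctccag
Hdc: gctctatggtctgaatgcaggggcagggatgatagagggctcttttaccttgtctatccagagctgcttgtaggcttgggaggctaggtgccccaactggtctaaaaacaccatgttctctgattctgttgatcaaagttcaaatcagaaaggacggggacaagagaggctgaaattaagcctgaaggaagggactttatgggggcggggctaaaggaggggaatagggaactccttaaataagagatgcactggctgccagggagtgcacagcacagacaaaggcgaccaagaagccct

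A set of 6 patterns was searched on both strands. The NF-kB pattern GGGNNNNNCC matched Acod1 once, from base -55 to -46 before the listed start, and 50.8% of the 32851 promoters in the table hold it. The hypoxia response core ACGTG matched Acod1 once on the opposite strand, from base -18 to -14, and 19.6% of promoters hold it. The interferon response core, a pair of GAAA blocks with 2 bases between them (3.44% of promoters), the interferon gamma site TTCNNNGAA (8.3%), the C/EBP pattern TTNNGNAA (40.7%) and the AP-1 pattern TGANTCA (7.81%) matched neither. None of the 6 patterns matched in the Hdc window. The 2 matches in Acod1 do not overlap, and a match or its lack in this window is a description only.

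Acod1, Hcar2, Hdc and Arg2 were highest in the Trem2 library, while Nos2 and Ido1 stayed under the background ceiling in all 4 libraries. The Ccrl2 array had 3 of the 6 genes above its ceiling and the CD74 array 2, while CD163 had 1 and Trem2 had 4. Among all 19505 genes, the array with most above its ceiling was Trem2 (8144), followed by Ccrl2 (7454), CD163 (4984) and CD74 (3621). Trem2 and Ccrl2 thus led on either count, and the counts of the 6 genes are read beside these totals. The genes above the ceiling in Trem2 were ranked by their margin over the brightest other library. Hcar2, Hdc and Acod1 took places 5, 6 and 7 of 8144. Arg2 took place 509. In the Trem2 library 3 of the 6 genes (Acod1, Hcar2, Hdc) exceeded all other libraries by at least 2-fold, beside 3.85% of 9346 genes, and in the Ccrl2 library 0 of the 6 did, beside 2.61%. The 9346 are the genes above a ceiling in at least 1 library, so Nos2 and Ido1 are not among them.

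The itaconate enzyme gene Acod1 had 8.92 in Ccrl2, 6.15 in CD74 and 4.32 in CD163, with 13.77 in Trem2. The values in CD74 and CD163 were under the ceiling, so Acod1 was measured only in Ccrl2 and Trem2. Ccrl2 minus Trem2 was -4.85 log2 units, or 28.8-fold lower in Ccrl2. CD74 was at least 151-fold and CD163 at least 180-fold lower than Trem2, with the dim value set at its ceiling. Ccrl2 was in turn at least 5.24-fold above CD74 and at least 6.23-fold above CD163. Acod1 thus ran from Trem2 down to Ccrl2, with CD74 and CD163 below measurement.

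Hdc, the histamine-forming enzyme gene, had 8.89 in Ccrl2, 7.48 in CD74 and 5.85 in CD163, with 13.77 in Trem2. The value in CD163 was under the ceiling and the other 3 were above. Ccrl2 minus Trem2 was -4.88 log2 units (29.4-fold lower), CD74 minus Trem2 was -6.29 (78.2-fold lower), and CD163 was at least 180-fold lower than Trem2. Ccrl2 was at least 6.11-fold above CD163 and CD74 at least 2.30-fold above CD163, the last of these under 2-fold with a ceiling at the 99th percentile (0.56 log2 units). Between Ccrl2 and CD74 the difference was 1.41 as deposited and turned to -0.11 after quantile normalization, so these neighbours have no settled order.

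The receptor gene Hcar2 had 7.75 in Ccrl2, 7.48 in CD74 and 6.97 in CD163, with 12.67 in Trem2, and was the only one of the 6 above the ceiling in every library. The difference from Trem2 was -4.92 log2 units for Ccrl2 (30.3-fold lower), -5.19 for CD74 (36.5-fold lower) and -5.70 for CD163 (52.0-fold lower). The other 3 libraries lay close together. Ccrl2 minus CD74 was 0.27 and Ccrl2 minus CD163 was 0.78, both under the 2-fold step. After quantile normalization the first of these was -1.04, with CD74 above Ccrl2.

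Arg2, the mitochondrial arginase gene, had 5.55 in Ccrl2, 5.30 in CD74 and 4.83 in CD163, with 7.36 in Trem2. It was above the ceiling in Trem2 alone. As bounds, it was at least 3.23-fold lower in Ccrl2, at least 1.78-fold lower in CD74 and at least 2.11-fold lower in CD163 than in Trem2. The bound against CD74 falls short of 2-fold because the ceiling of that array is high. With the ceiling at the 99th percentile of the background genes, the log2 differences were -0.97 for Ccrl2 and -0.44 for CD163, and with quantile normalization -0.49 for CD163, so the excess of Arg2 in Trem2 depends on where the background is set and on the scaling.

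Nos2, the inducible nitric oxide synthase gene, had 4.84 in Ccrl2, 5.04 in CD74 and 4.71 in CD163, with 5.12 in Trem2, all under the ceilings and within 0.41 of each other. Ido1 had 3.57 in Ccrl2, 3.83 in CD74 and 3.61 in CD163, with 3.67 in Trem2, within 0.26. Neither gene could be told from background in any library, so no fold is given for them. This does not show that the transcripts were absent.

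**Figure D1:**
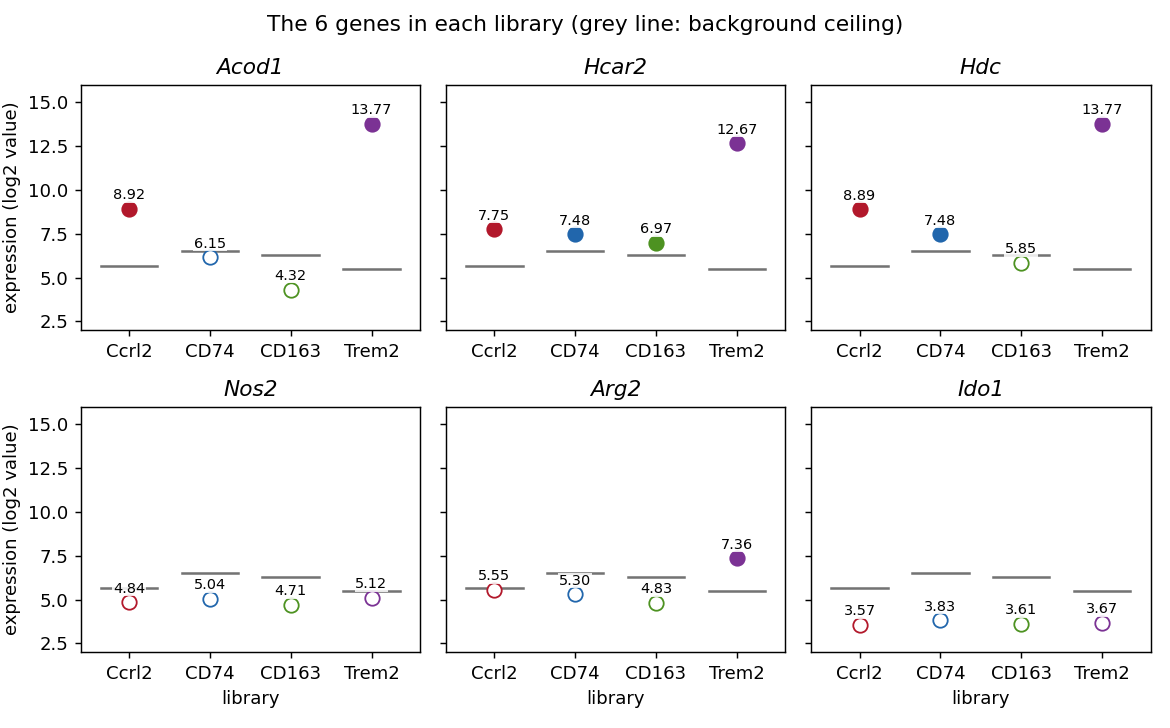
Deposited log2 value of each of the 6 genes (vertical axis) in the 4 libraries (horizontal axis), 1 array each, with no error bar because there are no replicates. Filled points lie above the library's background ceiling (grey line) and open points under it. Acod1, Hcar2 and Hdc reach 13.77, 12.67 and 13.77 in Trem2, and all points of Nos2 and Ido1 are open.

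The counts by pair of libraries are set here beside the share of all genes that passed the same 2-fold rule. Ccrl2 over Trem2 had 0 of the 6 genes higher and 4 lower, beside 5.43% and 7.92% of 8773 genes. CD74 over Trem2 had 0 higher and 3 lower, beside 7.62% and 32.6% of 8522 genes. CD163 over Trem2 had 0 higher and 4 lower, beside 6.07% and 27.6% of 8532 genes. In each pair 2 of the 6 genes, Nos2 and Ido1, were under both ceilings and so not tested. Some tested genes entered only through Trem2 and could not be called higher. These were Arg2 against Ccrl2, Acod1 and Arg2 against CD74, and Acod1, Hdc and Arg2 against CD163. After quantile normalization higher genes made up 65.3% of all calls in CD74 over Trem2, in place of 18.9%, and 61.7% in CD163 over Trem2, in place of 18%. Acod1, Hcar2 and Hdc stayed at least 2-fold lower in all 3 pairs under that scaling. These 3 comparisons share the Trem2 array, so they are not separate evidence of its excess.

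Among the other 3 libraries, Hcar2 in every pair and Hdc between Ccrl2 and CD74 differed less than they did from Trem2. The remaining differences of Acod1 and Hdc there are bounds, so their full size is not known. In Ccrl2 over CD74 and in Ccrl2 over CD163, 3 of the 6 genes were under both ceilings, and in CD74 over CD163 4 were. Ccrl2 over CD74 had 2 genes higher (Acod1, Hdc) and 0 lower, beside 32% and 7.8% of 7902 genes. Ccrl2 over CD163 had the same 2 genes higher and 0 lower, beside 28.1% and 5.03% of 7891 genes. CD74 over CD163 had 1 higher (Hdc) and 0 lower, beside 9.98% and 19.3% of 5842 genes. The shares are over tested genes only. With 3 genes of the set tested in each pair with Ccrl2, the counts are too small to be set against them. For Acod1 the Ccrl2 library lay next to Trem2, at least 5.24-fold above CD74 and at least 6.23-fold above CD163 in the deposited values, and less after quantile normalization. For Hcar2, the one gene measured in all 4 libraries, Ccrl2 minus the mean of the other 3 was -1.29, and 0.525 without the Trem2 library.

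**Figure D2:**
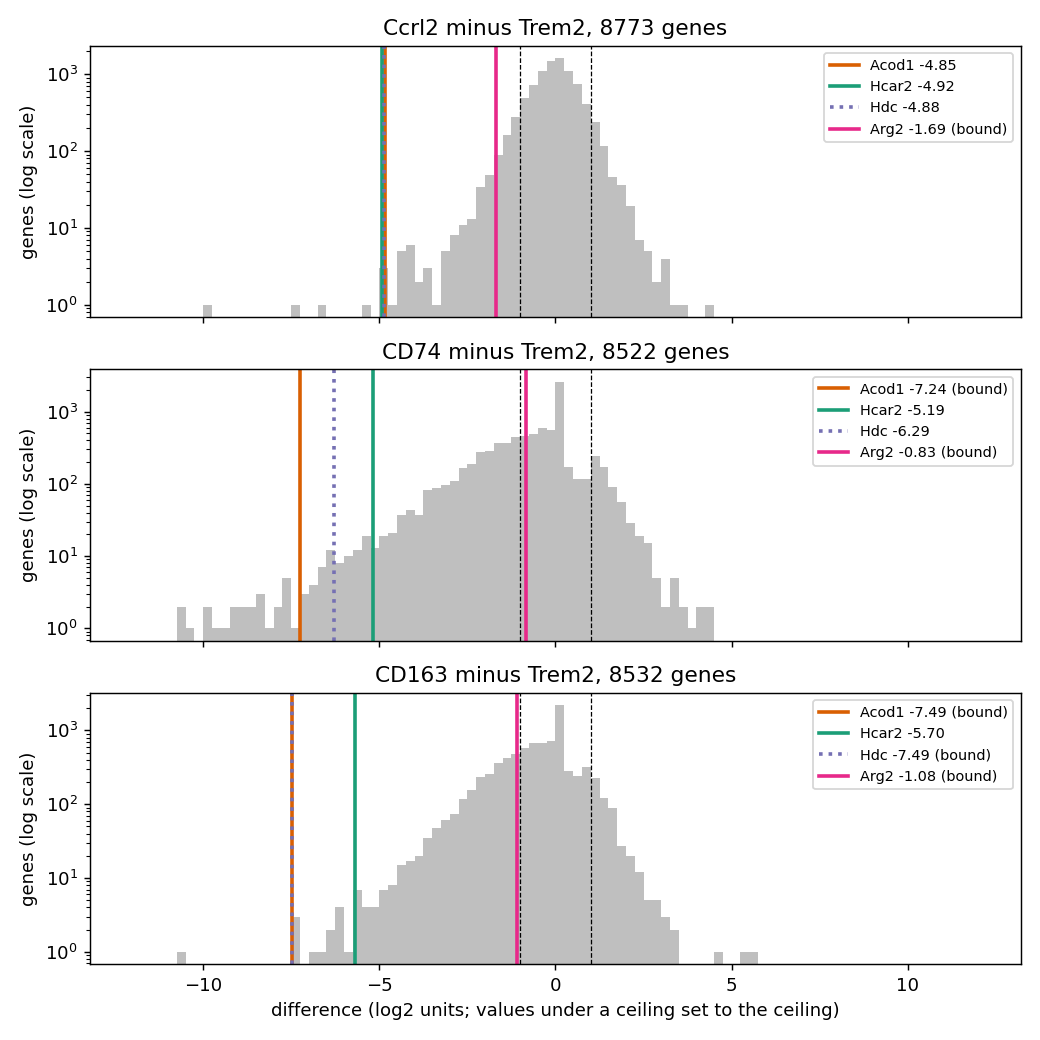
Histograms of the log2 difference from the Trem2 library over all genes tested (8773 for Ccrl2, 8522 for CD74 and 8532 for CD163), with a log-scaled count axis and dashed lines at 1 log2 unit either way. Coloured lines mark the 4 measured genes. In Ccrl2 minus Trem2, Hcar2, Hdc and Acod1 lie at -4.92, -4.88 and -4.85 and Arg2 at a bound of -1.69.

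Likeness of pattern was measured as the root mean square (RMS) difference between 2 genes over the 4 libraries, after each gene's own mean was subtracted. It used the values under a ceiling too (Acod1 in CD74 and CD163, Hdc in CD163), so the likenesses rest in part on background values and their order is not firm. Among the measured genes of the set, the value was 0.73 log2 units for Acod1 and Hdc, 0.93 for Hcar2 and Hdc, 1.63 for Acod1 and Hcar2, and 2.64 for Acod1 and Arg2. Outside the set, 8736 named genes above a ceiling in at least 1 library were compared. The 3 most like Hcar2 were Ngp (0.27), a granule protein gene of developing neutrophils, Csf3r (0.29), the receptor for the neutrophil growth factor, and S100a9 (0.31), a calprotectin chain. Ngp was above its ceiling in Trem2 alone, whereas Csf3r was above it in all 4 libraries. S100a9 (0.69) was also nearest to Hdc, followed by Mxd1 (0.74), a repressor of the Myc network, and Thbs1 (0.84), which encodes the matrix protein thrombospondin.

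For Acod1 the nearest were Thbs1 (1.28), Lcn2 (1.29), an iron-scavenging granule protein gene, and Mxd1 (1.34). Thbs1 had 8.21 in Ccrl2, 6.21 in CD74 and 4.69 in CD163, with 10.86 in Trem2, and its CD74 and CD163 values were under the ceiling. Arg2 had other neighbours, namely Btf3 (0.05), Tex10 (0.06) and Rnf122 (0.12). Arg2 itself was under the ceiling in 3 of the 4 libraries. These likenesses rest on 4 arrays each and are descriptions.

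Neutrophil markers were also high in the Trem2 library. Of 11 such markers, the Ccrl2 array had 4 above its ceiling, CD74 had 5, CD163 had 1 and Trem2 had 9. The log2 of their summed linear signal was 10.06 in Ccrl2, 10.04 in CD74 and 9.01 in CD163, with 17.16 in Trem2. Camp and Ltf, which encode granule proteins, were under the ceiling in all 4 libraries. Retnlg, a resistin-like gene of neutrophils, had 6.83 in Ccrl2, 7.15 in CD74 and 5.17 in CD163 (under the ceiling), with 16.81 in Trem2. Csf3r had 9.03 in Ccrl2, 8.31 in CD74 and 7.67 in CD163, with 13.16 in Trem2.

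Of the 9 neutrophil markers measured in Ccrl2 or Trem2, all 9 were at least 2-fold lower in Ccrl2, beside 7.92% of all genes tested. Of these 9, S100a8, Mmp8, Mmp9, Cxcr2 and Ngp were under the ceiling in Ccrl2 and entered only through Trem2, so their differences are bounds. Retnlg (-9.98), Lcn2 (-7.47), S100a9 (-5.36) and Csf3r (-4.13) were above it in both libraries. After quantile normalization the same 9 were still at least 2-fold lower. In the ranking by margin in Trem2, Retnlg, Lcn2, S100a8 and S100a9 took places 1 to 4, just before Hcar2, Hdc and Acod1. The part of neutrophil RNA in the values of the 6 genes was not tested. In such bulk libraries, fewer cells of a type and less RNA per cell cannot be told apart.

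Mast cell and basophil markers, the other known source of Hdc, differed less. Of 10, the Ccrl2 array had 2 above its ceiling, CD74 had 2, CD163 had 1 and Trem2 had 6. The log2 of their summed signal was 8.68 in Ccrl2, 9.19 in CD74 and 8.99 in CD163, with 10.28 in Trem2. Cpa3, the mast cell carboxypeptidase gene, had 6.36 in Ccrl2, 7.64 in CD74 and 6.24 in CD163, with 9.54 in Trem2. Tpsb2, a mast cell tryptase gene, had 5.07 in Ccrl2, 5.59 in CD74 and 4.33 in CD163, with 6.96 in Trem2, and only the last value was above its ceiling. Mcpt4, from the same list, was above the ceiling in every library and was not 2-fold apart in any pair. Its Trem2 value was 7.03, against 6.95 for CD163, 6.78 for Ccrl2 and 6.55 for CD74. Cma1, also listed, was above the ceiling in Trem2 alone (6.02), with a CD163 value of 5.85. The receptor chain genes Fcer1a and Ms4a2 and the basophil protease gene Mcpt8 were under the ceiling in every library. The part of these cells in the Hdc values was not tested.

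**Figure D3:**
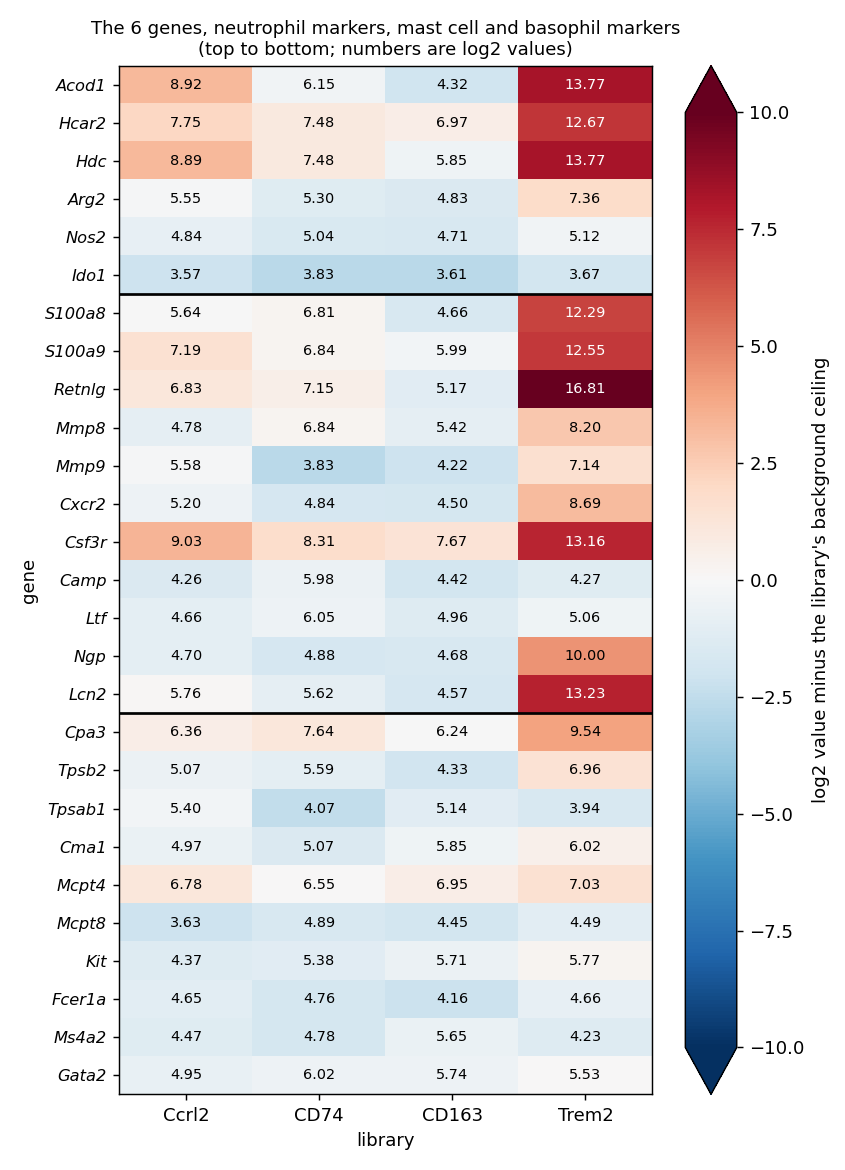
Heat map of the 6 genes (top block), 11 neutrophil markers (middle) and 10 mast cell and basophil markers (bottom) in the 4 libraries, with the deposited log2 value printed in each cell. Colour shows the value minus the library's background ceiling, drawn up to 10 units either way. The Trem2 column holds the high values of Acod1 (13.77), Hcar2 (12.67), Hdc (13.77) and Retnlg (16.81).

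Markers of further cell types were also counted above the ceiling in Ccrl2, CD74, CD163 and Trem2. Classical monocyte markers gave 3, 3, 1 and 6 of 7, and B cell markers 5, 4, 1 and 7 of 7. Endothelial markers gave 5, 1, 3 and 5 of 7, fibroblast markers 7, 2, 3 and 7 of 7, and cardiomyocyte markers 8, 3, 6 and 7 of 8. Dendritic cells are a known source of Ido1, and their markers gave 3, 2, 1 and 3 of 10. Among those, Ccr7, a homing receptor gene, was above the ceiling in every library (11.38 in Ccrl2, 14.97 in CD74 and 9.94 in CD163, with 11.68 in Trem2), while Flt3, Xcr1 and Clec9a were under it in every library. In Ccrl2 over Trem2, 4 of 6 classical monocyte markers (median -2.02), 5 of 7 T and NK cell markers (median -1.75) and 5 of 7 B cell markers (median -1.37) were at least 2-fold lower, and 0 were higher. Over all genes tested, 7.92% were lower and 5.43% higher, with a median of -0.01. All 7 T and NK cell markers tested entered only through Trem2, so none of them could be higher in Ccrl2. The same holds for Chil3, Vcan and Hp of the monocyte list and for Fcrla and Blk of the B cell list. Their part in the values of the 6 genes was not tested.

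Of 17 other genes of the itaconate pathway measured in Ccrl2 or Trem2, 1 was at least 2-fold higher in Ccrl2 and 1 lower, near the shares of all genes (5.43% and 7.92%), with a median difference of 0 against -0.01 over all genes tested. The higher gene was Nfkbiz, an NF-kB cofactor that itaconate derivatives restrain, with 17.31 in Ccrl2, 10.74 in CD74 and 14.62 in CD163, against 15.25 in Trem2. The lower was Sdhd, a subunit of succinate dehydrogenase, with 5.79 in Ccrl2 and 7.14 in Trem2, named after its values were seen. It slipped under 2-fold after quantile normalization (-0.98).

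The catalytic subunit gene Sdha, on whose enzyme itaconate acts, had 5.79 in Ccrl2, 4.61 in CD74 and 5.79 in CD163, with 5.77 in Trem2. Its values in CD74 and CD163 were under the ceiling, and those in Ccrl2 and Trem2 only just above it. Sdhb, its partner, had 8.09 in Ccrl2 and 8.18 in Trem2 and was under the ceiling in CD74 and CD163. Atf3, a stress factor induced by itaconate derivatives, had 19.75 in Ccrl2, 13.29 in CD74 and 19.47 in CD163, with 19.47 in Trem2, near the top of the scale at 19.93. Nfe2l2, which encodes Nrf2, had 6.46 in Ccrl2 and was under the ceiling in the other 3 libraries. Idh2, a citric acid cycle gene, had 7.74 in Ccrl2 and 8.01 in Trem2.

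Hcar1, the lactate receptor related to Hcar2, was under the ceiling in all 4 libraries, at 4.08 in Ccrl2, 4.60 in CD74 and 4.87 in CD163, with 4.17 in Trem2. Only 4 of 13 receptor and ketone genes were above a ceiling in any library. Between Ccrl2 and Trem2, 1 of these 4 was at least 2-fold higher in Ccrl2 and 1 lower, with a median of -0.21. Over all genes tested, 5.43% were higher and 7.92% lower. Slc16a3, an exporter of lactate and other monocarboxylates, was the lower one. It had 6.90 in Ccrl2, 6.81 in CD74 and 5.03 in CD163 (under the ceiling), against 9.37 in Trem2. Ccrl2 minus CD74 was 0.09 for Slc16a3 as deposited and -0.76 after quantile normalization. Acat1, which splits acetoacetyl-CoA, was the higher one (8.69 in Ccrl2 and 7.60 in Trem2), and 0.98 log2 units apart after quantile normalization. Oxct1, the enzyme that activates ketone bodies for use, had 9.02 in Ccrl2 and 9.05 in Trem2.

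The histamine receptors Hrh1 and Hrh2 were under the ceiling in every library, and 3 of 8 genes of the histamine list were above it anywhere. Hnmt, the methyltransferase that inactivates histamine, had 6.34 in Ccrl2, 4.75 in CD74 and 5.22 in CD163, with 5.78 in Trem2. The CD74 and CD163 values of Hnmt were under the ceiling. Slc18a2, the vesicular carrier that stores histamine, had 5.40 in Ccrl2, under the ceiling, and 5.63 in Trem2. Slc29a4, an amine transporter, had 5.86 in Ccrl2 and 5.88 in Trem2. Of the 3 genes tested between Ccrl2 and Trem2, 0 were 2-fold apart, beside 5.43% of all genes higher and 7.92% lower.

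The arginine and nitric oxide list had 0 of 12 measured genes 2-fold apart between Ccrl2 and Trem2 and a median of -0.08 log2 units. Over all genes tested, 5.43% were higher and 7.92% lower in Ccrl2. The other synthases Nos1 and Nos3, the cytosolic arginase Arg1 and the arginine carrier Slc7a2 were under the ceiling in all 4 libraries. Gch1, the first enzyme in making the cofactor that nitric oxide synthases need, had 9.27 in Ccrl2, 6.55 in CD74 and 7.01 in CD163, with 8.28 in Trem2. Ccrl2 was 2.72 log2 units above CD74 and 2.26 above CD163 for Gch1, and 2-fold apart from both after quantile normalization too. Sat1, a polyamine-degrading enzyme gene, had 18.52 in Ccrl2, 10.35 in CD74 and 18.63 in CD163, with 19.17 in Trem2. Oat, which turns ornithine over, had 8.69 in Ccrl2 and 8.25 in Trem2, and Nosip, a partner of nitric oxide synthases, 7.90 and 7.96. Azin1, a regulator of polyamine synthesis, had 14.52 in Ccrl2, 13.49 in CD74 and 11.90 in CD163, against 14.05 in Trem2, with CD74 above Ccrl2 after quantile normalization.

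In the tryptophan list, Ido2, Kynu and Kmo were under the ceiling in all 4 libraries, like Ido1. Of 11 genes measured in Ccrl2 or Trem2, 0 were at least 2-fold higher and 1 lower in Ccrl2, with a median of 0.15. Over all genes tested, the shares were 5.43% and 7.92%. The lower one was Gpr35, a receptor proposed for kynurenic acid, named after its values were seen. It had 6.35 in Ccrl2, 6.71 in CD74 and 4.48 in CD163 (under the ceiling), against 8.91 in Trem2. The amino acid carrier genes Slc7a5 and Slc3a2 had 7.09 and 15.44 in Ccrl2 and 7.36 and 14.62 in Trem2. Tiparp, a target of the aryl hydrocarbon receptor, had 10.03 in Ccrl2, 5.61 in CD74 (under the ceiling) and 9.54 in CD163, with 9.52 in Trem2. Arnt, the partner of that receptor, had 9.09 in Ccrl2 and 8.61 in Trem2.

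Factors known to drive Nos2, Acod1 or Ido1 were above the ceiling in 23 of 23 cases in Ccrl2, 18 in CD74 and 20 in CD163, and 23 in Trem2. Between Ccrl2 and Trem2, 6 of 23 were at least 2-fold higher in Ccrl2 and 1 was lower, beside 5.43% and 7.92% of all genes, with a median of 0.16. The lower one was the interferon receptor chain gene Ifnar2 (11.01 in Ccrl2 and 12.83 in Trem2), and Myd88, a Toll-like receptor adaptor gene, was among the higher (8.24 and 7.06), both named after their values were seen. The other 5 higher ones were named for their large difference of Ccrl2 from the other libraries, so their direction is not independent of that choice. Cd14, a lipopolysaccharide coreceptor, had 15.37 in Ccrl2, 8.58 in CD74 and 12.50 in CD163, with 13.26 in Trem2. Irf1, an interferon-induced factor, had 12.65 in Ccrl2, 8.56 in CD74 and 12.44 in CD163, with 11.38 in Trem2. Tlr2, a receptor for bacterial lipoproteins, had 14.56 in Ccrl2 and 13.49 in Trem2. The early response factors Jun and Fos had 19.92 and 19.62 in Ccrl2 and 18.92 and 18.55 in Trem2. The Jun value in Ccrl2 lay at the top of the scale (maximum 19.93), which limits the difference that could be read. Tlr2, Jun and Fos slipped under 2-fold after quantile normalization.

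In Ccrl2 over CD74 and Ccrl2 over CD163, 32% and 28.1% of all genes tested were higher in Ccrl2, and 7.8% and 5.03% were lower. The pathway lists are read beside those shares. Ccrl2 over CD74 had 7 of 16 itaconate genes higher and 0 lower, 5 of 12 arginine genes higher and 1 lower, 3 of 11 tryptophan genes higher and 4 lower, and 15 of 23 inducing factors higher and 1 lower. Ccrl2 over CD163 had 6 of 16, 3 of 12, 2 of 12 and 12 of 23 higher in the same lists, and 0 lower in each. After quantile normalization, 5 of 7 itaconate calls, 3 of 3 ketone calls, 2 of 6 arginine calls, 1 of 7 tryptophan calls and 8 of 16 inducing factor calls were lost in Ccrl2 over CD74. In Ccrl2 over CD163, 3 of 6, 3 of 3, 1 of 3, 2 of 2 and 7 of 12 were lost in the same order. That scaling also made genes lower that had no call as deposited. In Ccrl2 over CD74 these were Suclg1 (-1.915), Odc1 (-1.05), Gpr35 (-1.05), Myd88 (-1.08), Ifnar2 (-1.48) and Jak1 (-1.70). Ccrl2 over CD163 gained lower calls too, the largest for Ifnar2 (-2.04). The sign turned in Ccrl2 over CD74 for Oxct1 (-0.57), Slc3a2 (-0.40), Azin1 (-1.735) and the NF-kB subunit genes Rela (-1.14) and Rel (-2.01).

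**Figure D4:**
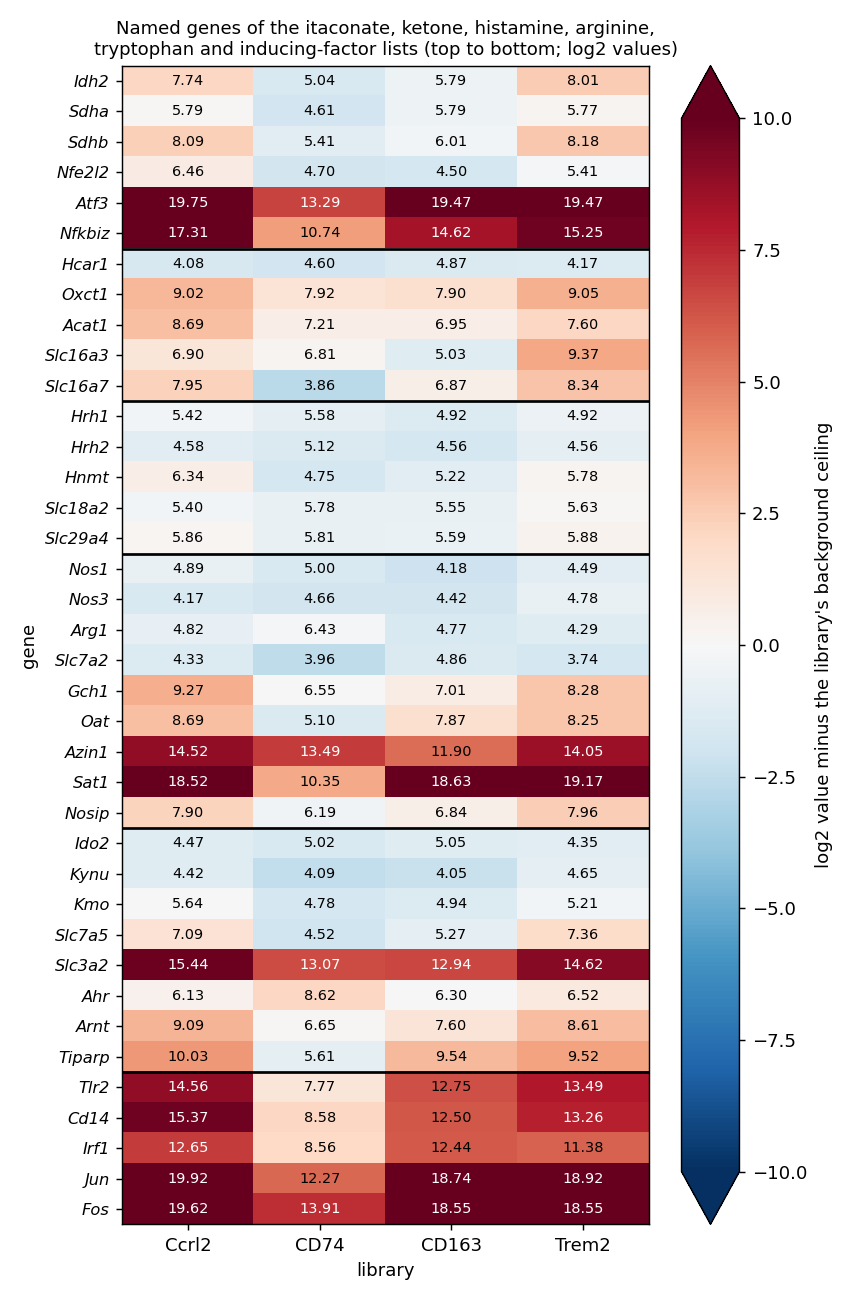
Heat map of named genes from the 6 pathway lists (blocks from top to bottom: itaconate, ketone and hydroxycarboxylic acid, histamine, arginine and nitric oxide, tryptophan, inducing factors) in the 4 libraries, with deposited log2 values printed. Colour shows the value minus the library's background ceiling, drawn up to 10 units either way. Slc16a3 is highest in Trem2 (9.37), while Hcar1, Nos1, Nos3, Arg1, Slc7a2, Ido2, Kynu and Kmo stay under the ceiling in every library.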

How the data were processed

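RNA of 4 sorted populations was amplified with a whole-transcript kit for small inputs and hybridised to Clariom S arrays, per the labels' protocols. The deposited log2 values were background-corrected, normalized and summarised by robust multichip average by the authors, per the labels' protocols. GeneSpring is also named there, and Affymetrix Expression Console in the submitters' processing notes. Not given in the sources used here were the settings and the probes' genome build. Values ran from 2.97 to 19.93, and their spread differed between columns. Precision is limited by how few arrays there are.

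The platform annotation gave 19572 of 28846 probe sets 1 symbol and 0 of them several, and all 19572 matched the RefSeq gene table. For 55 genes with several probe sets, that of the highest mean was used. A gene was tested in a pair where it lay above the ceiling of at least 1 of both libraries. Values under a ceiling were set to it, and 1 log2 unit counted as apart. Ceilings differ, so a gene just above the CD74 ceiling and under that of Trem2 counts as higher, which held for none of the 6 genes. The rule was also run on simulated libraries with a common mean profile and equal noise. Those libraries lack the unequal ceilings and spreads of these arrays, so the run does not check the rule under them. Python 3.11.15 and pandas 2.3.3 were used.

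The members, gene lists and motifs were chosen with earlier results of these data known. Named were the 6 genes, up to 5 genes per pathway list with the largest difference of Ccrl2 from the mean of the others, fixed partner genes, the brightest markers, and the 3 genes most like each member. Several further list genes without a usable probe set were not analysed here. Alternatives were quantile normalization, median centring, no ceiling, a ceiling at the 99th percentile, the mean over probe sets, and 1.5-fold and 4-fold steps. Planned protein alignments were not run, for lack of a sequence table.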

Additional observations from a re-analysis of the deposited data

How the results depend on the processing

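No paired analysis was possible because each population had 1 library. The Trem2 excess of Acod1, Hcar2 and Hdc over each other library was at least 2-fold under all 7 alternatives. These were quantile normalization, median centring, no ceiling, the 99th percentile ceiling, the mean over probe sets, and the 1.5-fold and 4-fold steps. The mean over probe sets could not change the excess, because each gene has 1 probe set. The fold steps move only the cut-off, and leaving out the ceiling could only widen the excess. Only quantile normalization, median centring and the stricter ceiling could have narrowed it. Quantile normalization gave Ccrl2 over CD74 1 gene higher and 1 lower, with Hdc reversed at -0.11, and CD74 over CD163 2 higher. CD74 over CD163 had 2 higher with no ceiling, 0 with the 99th percentile ceiling and 0 at 4-fold, and Ccrl2 over CD74 had 1 higher at 4-fold. For Hcar2, Ccrl2 minus the mean of the others (-1.29) reversed to 0.27 with the median of the other 3 and to 0.525 without the Trem2 library. The other 77 counts stayed within 1.5 times of those reported.

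Over all genes, quantile normalization turned the balance of calls in every pair with CD74 or CD163. Higher calls made up 35.7% in place of 80.4% for Ccrl2 over CD74, 39.6% in place of 84.8% for Ccrl2 over CD163, 58.1% in place of 34% for CD74 over CD163, 65.3% in place of 18.9% for CD74 over Trem2 and 61.7% in place of 18% for CD163 over Trem2. Ccrl2 over Trem2 had 331 higher and 373 lower genes in place of 476 and 695. Over the 7 alternatives, genes called higher and lower ranged from 915 to 4138 and 102 to 2548 for Ccrl2 over CD74 (2529 and 616 as reported), 661 to 3281 and 32 to 1860 for Ccrl2 over CD163 (2214 and 397), 40 to 1333 and 96 to 1623 for Ccrl2 over Trem2, 188 to 2255 and 499 to 2998 for CD74 over CD163 (583 and 1130), 82 to 2508 and 840 to 4479 for CD74 over Trem2 (649 and 2782), and 50 to 2011 and 826 to 3455 for CD163 over Trem2 (518 and 2354). The 4-fold step, no ceiling and quantile normalization gave the extremes in most, with the 1.5-fold step the highest for Ccrl2 over Trem2. The median raw difference of the genes tested, with dim values not set to the ceiling, also moved. It was 0.32 after quantile normalization, in place of 0.96 as deposited, for Ccrl2 over CD74, and -0.35 in place of -1.01 for CD74 over Trem2. With dim values set to the ceiling, as in the other medians given here, the deposited values gave 0.26 and -0.28. The cause was not tested. Signal over background limits Nos2, Ido1 and Arg2 most.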

Other observations

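Some genes of the same pathways had their highest value in the CD74 library. They were picked after their values were seen. Ahr, the aryl hydrocarbon receptor that kynurenine can activate, had 6.13 in Ccrl2, 8.62 in CD74 and 6.30 in CD163, with 6.52 in Trem2. Ahrr, its repressor, had 5.78 in Ccrl2, 7.27 in CD74 and 6.53 in CD163, with 5.68 in Trem2. Asl, which recycles citrulline to arginine, had 5.81 in Ccrl2, 7.27 in CD74 and 6.23 in CD163 (under the ceiling), with 5.83 in Trem2. The CD74 library also had 13.01 for the granzyme gene Gzma and 11.91 for Il2rb, a cytokine receptor chain of T and NK cells. The part of lymphocyte RNA in these values was not tested.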
